A study of Mus musculus with 16 samples.

Results

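The H element cluster is a row of olfactory receptor genes on mouse chromosome 14 that includes Olfr1507 (MOR28), Olfr1508 (MOR10), Olfr1509 (MOR83), Olfr1510, Olfr1511 and Olfr1512. All 6 were found by symbol among 19572 named features, each as 1 feature, and they were 6 of 1080 intact receptor features. They were measured in 16 sorted cell fractions of mouse olfactory mucosa on Clariom S arrays, a 1-colour array that gives 1 log2 signal per gene. There were 4 groups of 4 arrays, from mice given odor or vehicle and, within each treatment, from fractions whose titles read GFP- or GFP+. Males and females of the C57BL/6 strain, 7 to 12 weeks old, were used in every group, and all carried S100a5-tauGFP, a fluorescent reporter placed under the activity-dependent neuronal gene S100a5. Each animal spent 40 h alone in a chamber supplied with clean air at 3.1 L per min. From 26 h on, odor mice received a mixture of undecanal and bourgeonal, a pair of aldehydes, for 10 s every 20 min, and vehicle mice received filtered air. The 24 mice made 8 pools of 3, and each pool was sorted into a GFP- and a GFP+ fraction, so that a replicate is a pool of different mice. The cell type characteristic of every sample gives the opposite GFP status to its title. The titles are used here, each fraction difference is titled GFP- minus titled GFP+, and it reads as fluorescent minus non-fluorescent cells if the characteristics are the correct label.

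Olfactory receptors are G protein-coupled receptors for odorants, and a mature sensory neuron transcribes a single allele of a single receptor gene. Receptor genes lie in clusters, and enhancers near the clusters take part in the choice of receptor. The H element was the first such enhancer to be described. It lies beyond the Olfr1507 end of its cluster and is needed in cis for expression of Olfr1507, Olfr1508 and Olfr1509, and the factors Lhx2, Ebf1 and Ldb1 act at enhancers of this kind. In RefSeq's gene order for GRCm38.p6 the genes ran Olfr1512, Olfr1511, Olfr1510, Olfr1509, Olfr1508, Olfr1507, with the T cell receptor segment Trav1 between Olfr1510 and Olfr1509. Olfr1513 lay next to Olfr1512 on the outer side, with only the pseudogene Gm4742 between them. RefSeq's synonyms place Olfr1507, Olfr1508 and Olfr1509 in the MOR244 family and Olfr1510, Olfr1511 and Olfr1512 in the MOR223 family. Whether each feature's probes separate such related receptors was not tested.

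RefSeq promoter windows, 250 bases before to 50 after the annotated start, were at hand for 4 of the 6 genes. All 4 are shown, and none was at hand for Olfr1507 or Olfr1512. Whether these sequences bear on how the genes varied between arrays was not tested. Capitals mark every match, on either strand, to 3 homeodomain core motifs, the type of site that Lhx2 binds. The first motif searched was TAATTA, which reads the same on both strands. The second motif was TAATTG, and the third one searched in these windows was TAATGA. The windows are Olfr1508 (chr14:52467412-52467711, minus strand), Olfr1509 (chr14:52450143-52450442, plus strand), Olfr1510 (chr14:52410878-52411177, minus strand) and Olfr1511 (chr14:52390722-52391021, minus strand), all GRCm38.p6, and each is written 5′ to 3′ on the gene's strand.
Olfr1508: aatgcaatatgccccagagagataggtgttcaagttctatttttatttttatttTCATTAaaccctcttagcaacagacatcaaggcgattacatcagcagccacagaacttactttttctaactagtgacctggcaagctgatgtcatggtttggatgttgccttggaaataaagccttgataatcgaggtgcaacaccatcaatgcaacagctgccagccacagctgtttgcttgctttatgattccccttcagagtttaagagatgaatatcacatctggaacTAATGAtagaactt
Olfr1509: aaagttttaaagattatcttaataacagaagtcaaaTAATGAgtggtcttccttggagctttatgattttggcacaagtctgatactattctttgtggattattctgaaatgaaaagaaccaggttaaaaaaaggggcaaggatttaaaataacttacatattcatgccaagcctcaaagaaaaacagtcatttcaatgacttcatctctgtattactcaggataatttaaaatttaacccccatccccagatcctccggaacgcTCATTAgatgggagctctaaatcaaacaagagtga
Olfr1510: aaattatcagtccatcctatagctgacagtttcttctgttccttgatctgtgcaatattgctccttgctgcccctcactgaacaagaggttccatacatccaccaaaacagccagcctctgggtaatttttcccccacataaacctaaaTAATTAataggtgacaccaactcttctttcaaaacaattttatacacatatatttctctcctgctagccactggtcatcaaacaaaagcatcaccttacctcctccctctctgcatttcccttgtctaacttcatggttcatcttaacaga
Olfr1511: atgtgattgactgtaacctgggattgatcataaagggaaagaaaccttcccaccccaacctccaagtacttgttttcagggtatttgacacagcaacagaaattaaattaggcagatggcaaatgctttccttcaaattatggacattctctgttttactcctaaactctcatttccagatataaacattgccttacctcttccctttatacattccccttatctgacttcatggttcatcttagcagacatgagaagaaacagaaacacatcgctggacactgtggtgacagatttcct
The windows of Olfr1508 and Olfr1509 each held 2 matches to TAATGA, where one of each pair is printed as the reverse complement, TCATTA. That of Olfr1510 held 1 match to TAATTA, and that of Olfr1511 held none. A match to any of these 3 cores stood in 54.2% of 925 receptor windows and in 19.9% of all 32851 windows in the table. The core of the Ebf motif, CCCNNGGG, and the full motif, which adds T before and A after it, were in none of the 4 windows, and in 2.92% and 0.541% of receptor windows. The windows of Olfr1510 and Olfr1511 shared a run of 18 bases, acttcatggttcatctta, which was found in only these 2 windows of the table. It lay at bases 28 to 45 after the annotated start of Olfr1510 and 24 to 7 before that of Olfr1511. The gene model of Olfr1511 spans 957 bases, a whole multiple of 3, and opens with a start codon, as a coding sequence without UTRs would. Its window thus surrounds the start of the coding sequence and is not known to hold the promoter. For Olfr1511 the lack of matches and the shared run are therefore not findings about a promoter. The gene models of Olfr1509 and Olfr1510 span only 1010 and 1039 bases, against 4741 for Olfr1508. Whether the windows of Olfr1509 and Olfr1510 lie at the true starts was not tested.

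In 8 of 8 pools S100a5 was higher in titled GFP- cells, by 0.71 to 2.43 log2 units, which goes against the titles. Array medians over all tested features were 6.76 to 6.84 on titled GFP- and 7.10 to 7.32 on titled GFP+ arrays. The overall level thus differed between the fractions in both treatments. The array of odor replicate 1 titled GFP+ stood apart, with the lowest receptor median, 7.94 against 8.59 to 9.47 on the other arrays, and the highest negative-control level. A background level was set for each array at the 95th percentile of its 5222 negative-control features, 9.14 to 10.9 log2 units, a strict level. It was 10.28 to 10.88 on the odor arrays titled GFP+. On vehicle arrays titled GFP+ it was 9.14 to 10.08, and on titled GFP- arrays 9.38 to 9.95. The 95th percentile of 23 background features graded by GC content, 6.87 to 7.41, served as a more permissive level chosen after the values were seen. In bulk fractions fewer cells of a kind and less RNA per cell cannot be told apart.

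Olfr1507 separated the fractions completely. In vehicle pools 1 to 4 its log2 signal was 4.77, 5.23, 6.66 and 6.50 in the titled GFP- fraction and 13.71, 13.91, 14.93 and 14.41 in the titled GFP+ fraction. With odor the signals were 4.93, 6.23, 5.58 and 6.18 in the titled GFP- fraction and 13.85, 14.12, 14.28 and 14.41 in the titled GFP+ fraction. The groups did not overlap in either treatment. Every titled GFP- array lay below both background levels and every titled GFP+ array above both, so only a lower bound of the fold can be given. Group means were 5.79 ± 0.94 and 5.73 ± 0.61 (SD, n = 4) in titled GFP- cells with vehicle and odor, and 14.24 ± 0.54 and 14.16 ± 0.24 in titled GFP+ cells, so the treatments lay within their spread and the fractions far outside it. The fold bound, from each array's background level, was at least 24.9-fold higher in titled GFP+ cells with vehicle and at least 19.8-fold with odor, or at least 133-fold and at least 121-fold against the GC-graded background. Against the 99th percentile of the negative controls it was only at least 1.97-fold with vehicle and at least 1.51-fold with odor, where 3 of 4 titled GFP+ arrays passed that level. The fitted differences of measured signals were -8.45 ± 0.40 (SE, limma adjusted p = 2.99e-10) and -8.43 ± 0.40 (adjusted p = 2.95e-10). Since the titled GFP- readings are at background, these fitted sizes give no exact fold and no rank among receptors.

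**Figure D1:**
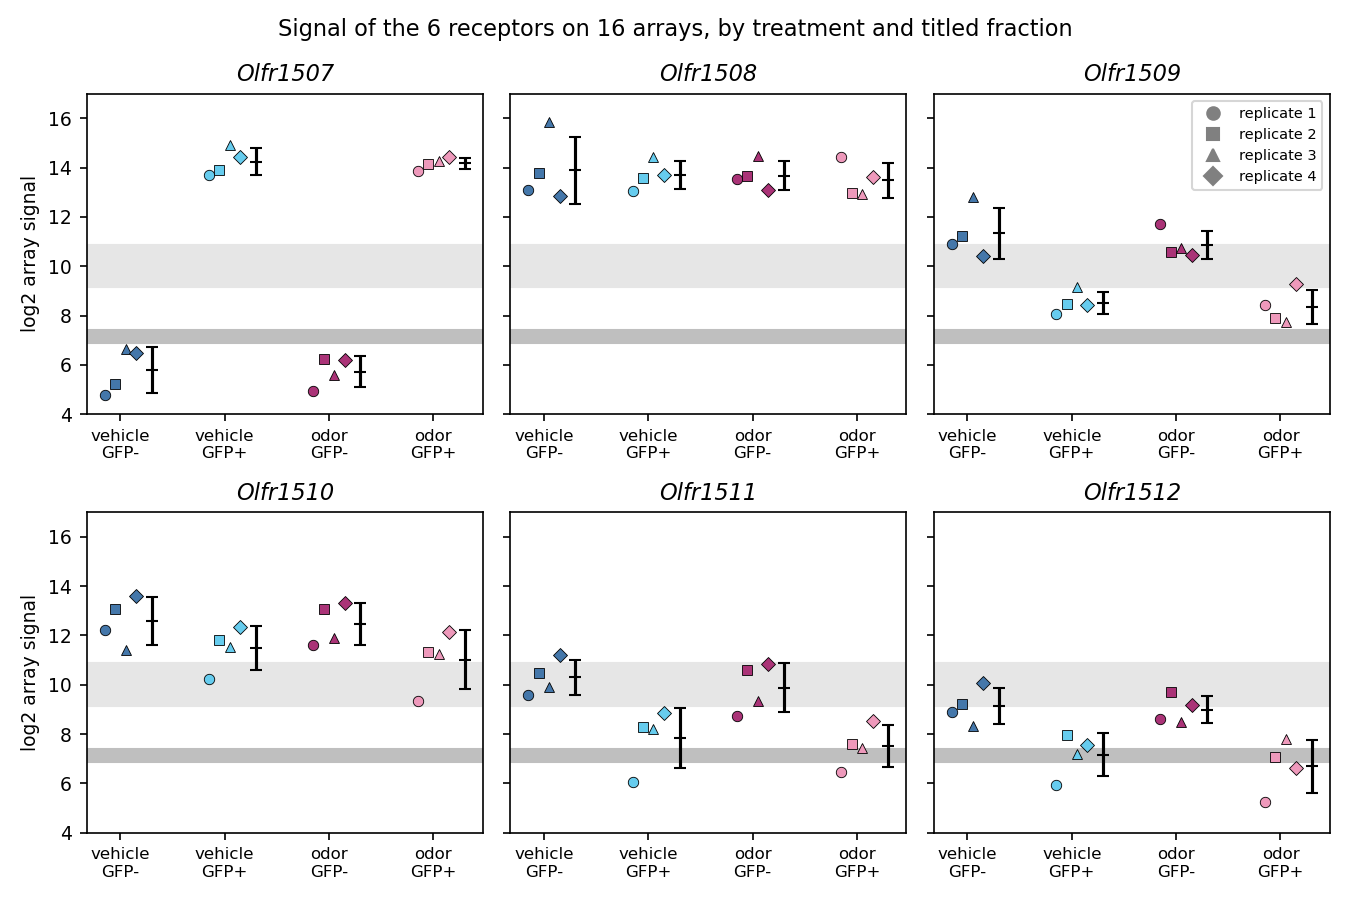
Log2 array signal (y axis) of each receptor on 16 arrays, by treatment and titled fraction; symbols mark replicates 1 to 4, bars the mean ± SD of 4 arrays, the light band the range of the negative-control level (9.14 to 10.9) and the dark band that of the GC-graded level (6.87 to 7.41). Olfr1507 lies between 4.77 and 6.66 in titled GFP- and between 13.71 and 14.93 in titled GFP+ arrays, Olfr1508 is above both bands in all groups, and Olfr1509, Olfr1511 and Olfr1512 are brighter in the titled GFP- arrays.

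Olfr1508, the nearest neighbour of Olfr1507, was above both background levels on all 16 arrays. Its vehicle signals were 13.09, 13.78, 15.83 and 12.86 in titled GFP- pools 1 to 4 and 13.07, 13.58, 14.42 and 13.69 in titled GFP+ pools. Its odor signals were 13.52, 13.64, 14.46 and 13.09 in the titled GFP- fraction and 14.43, 12.98, 12.92 and 13.60 in the titled GFP+ fraction. The groups overlapped in both treatments, and the highest array was vehicle replicate 3 titled GFP-. The fraction difference was 0.20 ± 0.53 (SE, limma adjusted p = 0.828) with vehicle and 0.20 ± 0.53 (adjusted p = 0.826) with odor. Group means from highest to lowest were 13.89 ± 1.35, 13.69 ± 0.56, 13.68 ± 0.57 and 13.48 ± 0.70 (SD, n = 4; vehicle titled GFP-, vehicle titled GFP+, odor titled GFP- and odor titled GFP+), each within the spread of its neighbours in that order. The 95% intervals of the difference ran from -0.93 to 1.33 with vehicle and from -0.94 to 1.33 with odor, so a difference of about that size cannot be told from none at 4 pools a group. Its sign turned without vehicle replicate 3 (-0.20, adjusted p = 0.793) in the vehicle comparison and without odor replicate 3 (-0.25, adjusted p = 0.820) in the odor comparison. It also turned with arrays centred on the receptor median (-0.069 with vehicle and -0.27 with odor). Over all alternatives adjusted p for this receptor lay between 0.315 and 0.989 with vehicle and between 0.426 and 0.976 with odor.

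Olfr1509, the third MOR244 receptor, was higher in titled GFP- cells. With vehicle it had 10.88, 11.22, 12.80 and 10.40 in titled GFP- pools and 8.07, 8.46, 9.14 and 8.44 in titled GFP+ pools. With odor it had 11.69, 10.56, 10.74 and 10.44 against 8.43, 7.91, 7.73 and 9.28. The groups did not overlap in either treatment, with means of 11.33 ± 1.04 and 10.86 ± 0.57 (SD, n = 4; vehicle and odor) in titled GFP- cells and 8.53 ± 0.45 and 8.34 ± 0.70 in titled GFP+ cells. The fitted difference was 2.80 ± 0.45 (SE, limma adjusted p = 2.67e-04) with vehicle and 2.52 ± 0.45 (adjusted p = 7.30e-04) with odor, 6.96- and 5.74-fold as measured. All titled GFP+ arrays of this receptor lay below the negative-control level, against which it was at least 3.65-fold higher in titled GFP- cells with vehicle and at least 1.33-fold with odor. They all lay above the GC-graded level. The negative-control level was higher on titled GFP+ arrays with odor than with vehicle, so these bounds do not compare the treatments.

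The MOR223 receptors had higher means in the titled GFP- fraction as well. Olfr1510 had 12.20, 13.08, 11.41 and 13.61 in titled GFP- and 10.24, 11.81, 11.54 and 12.33 in titled GFP+ vehicle pools. With odor its signals were 11.60, 13.08, 11.91 and 13.32 against 9.33, 11.33, 11.24 and 12.14. Its groups overlapped in both treatments, while within each pool it was higher in titled GFP- cells, except in vehicle replicate 3, where the difference was -0.12. Means were 12.58 ± 0.97 and 12.48 ± 0.85 (SD, n = 4; vehicle and odor) in titled GFP- cells and 11.48 ± 0.89 and 11.01 ± 1.19 in titled GFP+ cells. The fitted difference was 1.10 ± 0.61 (SE, limma adjusted p = 0.237) with vehicle and 1.47 ± 0.61 (adjusted p = 0.0944) with odor. With the pool as a block, which uses the shared mice of the paired fractions, the differences passed at the same sizes (adjusted p = 0.0405 and 0.0094). They also passed when each array was centred on its overall median (1.50 and 1.77, adjusted p = 0.0368 and 0.0220). Over all alternatives its adjusted p ranged from 0.0214 to 0.521 with vehicle and from 0.0031 to 0.219 with odor.

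Olfr1511 had 9.60, 10.49, 9.92 and 11.18 in titled GFP- and 6.04, 8.29, 8.19 and 8.84 in titled GFP+ vehicle pools. With odor it had 8.75, 10.60, 9.35 and 10.84 against 6.47, 7.59, 7.42 and 8.53. The groups did not overlap, with means of 10.30 ± 0.70 and 9.88 ± 1.00 (SD, n = 4; vehicle and odor) in titled GFP- cells and 7.84 ± 1.23 and 7.50 ± 0.84 in titled GFP+ cells. The differences were 2.46 ± 0.60 (SE, limma adjusted p = 0.0082) with vehicle and 2.38 ± 0.60 (adjusted p = 0.0093) with odor. Without odor replicate 2 the odor difference no longer passed (2.17, adjusted p = 0.0536), where other alternatives gave adjusted p from 7.79e-06 up. Its titled GFP- signal was above the negative-control level on 4 of 4 arrays with vehicle but on only 2 of 4 with odor. Its titled GFP+ arrays all lay below that level, which left a bound of at least 1.79-fold with vehicle and none above 1 with odor. As for Olfr1509, that level was higher on titled GFP+ arrays with odor, so these bounds do not compare the treatments.

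Olfr1512 stood near background, above the negative-control level on 1 of 16 arrays. Its vehicle signals were 8.90, 9.22, 8.32 and 10.07 in titled GFP- and 5.94, 7.98, 7.20 and 7.55 in titled GFP+ pools. Its odor signals were 8.59, 9.69, 8.50 and 9.17 against 5.24, 7.08, 7.81 and 6.64. The groups did not overlap, with means of 9.13 ± 0.73 and 8.99 ± 0.55 (SD, n = 4; vehicle and odor) in titled GFP- cells and 7.17 ± 0.88 and 6.69 ± 1.08 in titled GFP+ cells. All titled GFP- arrays were above the GC-graded level, against 3 of 4 titled GFP+ arrays with vehicle and 1 of 4 with odor. The differences were 1.96 ± 0.52 (SE, limma adjusted p = 0.0146) with vehicle and 2.29 ± 0.52 (adjusted p = 0.0046) with odor, and no fold is given against the strict background. The vehicle difference did not pass without vehicle replicate 1 (1.62, adjusted p = 0.0819) or 4 (1.77, adjusted p = 0.0627), where its alternatives ranged from 0.0017 to 0.0819.

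In each treatment 4 of the 6 receptors thus passed, 3 with a higher and 1 with a lower signal in titled GFP- cells. Of all features 16.9% passed with vehicle (7.05% higher, 9.82% lower) and 22.2% with odor (12.2% higher, 9.98% lower). Of intact receptors 53.9% passed with vehicle (33.3% higher, 20.6% lower) and 56.5% with odor (37.6% higher, 18.9% lower), so that a share of 4 in 6 is near that of receptors at large. Groups did not overlap for 4 of the 6 in each treatment, against 23.4% and 24.5% of all features and 53.1% and 53.6% of receptors. The median fraction difference of the 6 was 1.53 with vehicle and 1.88 with odor, against 0.13 and 0.14 over all features and 0.43 and 0.57 over receptors. Over the 33 other intact receptors of chromosome 14 it was 1.77 and 1.85, so a median of this size was not particular to the cluster.

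**Figure D2:**
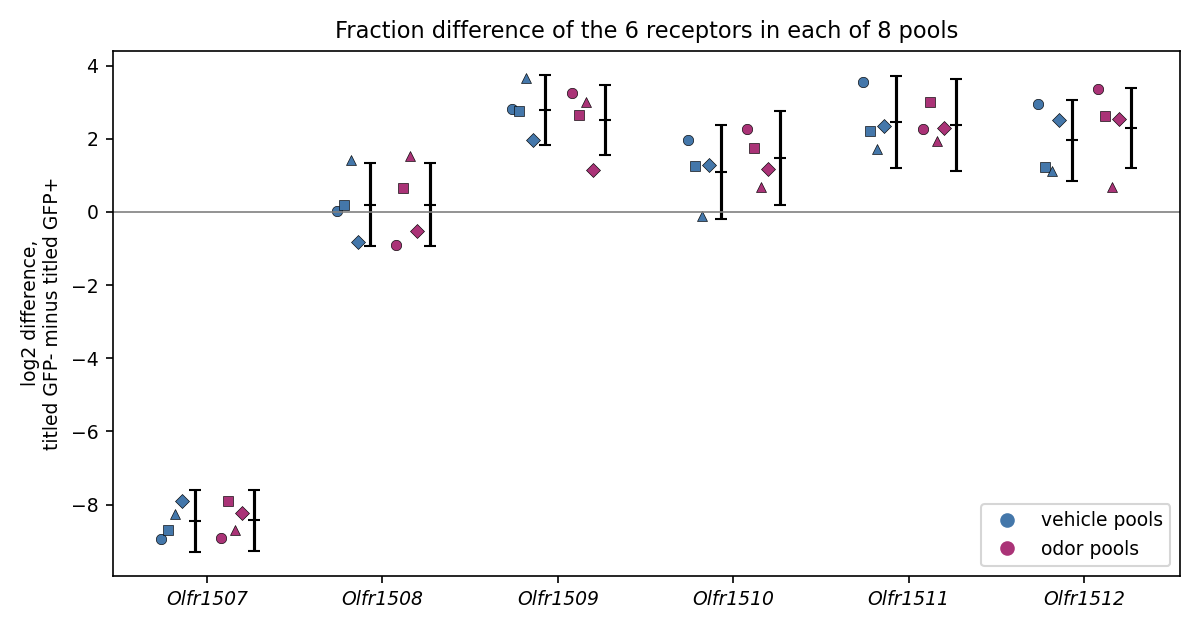
Log2 fraction difference (y axis, titled GFP- minus titled GFP+) of the 6 receptors (x axis) in 4 vehicle and 4 odor pools; symbols mark replicates 1 to 4 as circle, square, triangle and diamond, and black bars the limma estimate with its 95% interval. Olfr1507 lies between -8.95 and -7.89 in all 8 pools, Olfr1508 straddles 0, and Olfr1509, Olfr1511 and Olfr1512 are above 0 in every pool.

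Pool by pool, the fraction difference of Olfr1507 ran from -8.95 to -7.89, and that of Olfr1508 from -0.91 to 1.54. Olfr1509 had 1.16 to 3.66, Olfr1511 1.72 to 3.56 and Olfr1512 0.68 to 3.35. The 15 pairs of receptors were compared over the 8 pools, both treatments joined, by a two-sided exact sign-flip permutation test, whose smallest p is 0.0078, with Benjamini-Hochberg adjustment over the pairs. Differences in fraction difference passed for 10 of the 15 pairs with pools as independent units. Odor and vehicle arrays of 1 replicate number deviated together, and with the number as the unit the smallest possible p is 0.125, so that 0 of the 15 pairs could pass. The 10 pairs lay on the same side of 0 for all 4 numbers, and the adjusted p-values below hold for pools as units only. The difference of Olfr1507 minus each of the other 5 receptors had a mean of -11.10 to -8.64 log2 units as measured, with Olfr1507 at background in titled GFP- cells, in the same direction in 8 of 8 pools (exact permutation, adjusted p = 0.0146 for each). Olfr1508 minus Olfr1509 was -2.46 ± 0.85 (SD, 8 pools) and Olfr1508 minus Olfr1511 was -2.22 ± 1.25, below 0 in 8 of 8 pools (exact permutation, adjusted p = 0.0146 each). Olfr1508 minus Olfr1512 was -1.93 ± 1.82 and minus Olfr1510 was -1.08 ± 1.57, which did not pass (exact permutation, adjusted p = 0.0533 and 0.117). Olfr1509 and Olfr1511 differed by 0.24 ± 1.06, with 4 of 8 pools on each side (exact permutation, adjusted p = 0.539), and Olfr1509 and Olfr1512 by 0.53 ± 1.43 (exact permutation, adjusted p = 0.352). Within the MOR223 trio, Olfr1510 minus Olfr1511 was -1.14 ± 0.55 and minus Olfr1512 was -0.84 ± 0.55 (exact permutation, adjusted p = 0.0146 and 0.0352), while Olfr1511 and Olfr1512 differed by 0.29 ± 0.75 (exact permutation, adjusted p = 0.352). Olfr1509 lay above Olfr1510 by 1.38 ± 1.18 in 7 of 8 pools (exact permutation, adjusted p = 0.0260). Leaving out 1 pool left 8 to 11 passing pairs. Pair differences with Olfr1509, Olfr1511 or Olfr1512 are also as measured, since their titled GFP+ arrays all lay below the negative-control level.

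Along the other receptors of the chromosome, 19 of 33 were higher and 6 lower in titled GFP- cells with vehicle (75.8% passed, 57.6% higher and 18.2% lower). With odor 18 were higher and 5 lower (69.7% passed, 54.5% higher and 15.2% lower). The lowest of these were Olfr728 at -7.06 ± 0.57 and Olfr750 at -4.32 ± 0.83 with vehicle (SE, limma adjusted p = 1.86e-07 and 0.0014). With odor the same receptors stood at -7.23 ± 0.57 and -4.52 ± 0.83. At the upper end Olfr726 and Olfr741 stood at 3.41 ± 0.48 and 3.29 ± 0.60 with vehicle, and Olfr745 and Olfr726 at 3.98 ± 0.75 and 3.71 ± 0.48 with odor. The bound of Olfr1507 against the negative controls was 4.64 log2 units with vehicle and 4.30 with odor, so its order against Olfr728 and Olfr750 is not established. The fitted values of Olfr1509, Olfr1511 and Olfr1512 lay within the range of these 33 receptors. Olfr1513, the intact receptor next to Olfr1512, is named here after its values were seen and differed by 0.42 ± 0.54 with vehicle and 0.48 ± 0.54 with odor (SE, limma adjusted p = 0.624 and 0.556).

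**Figure D3:**
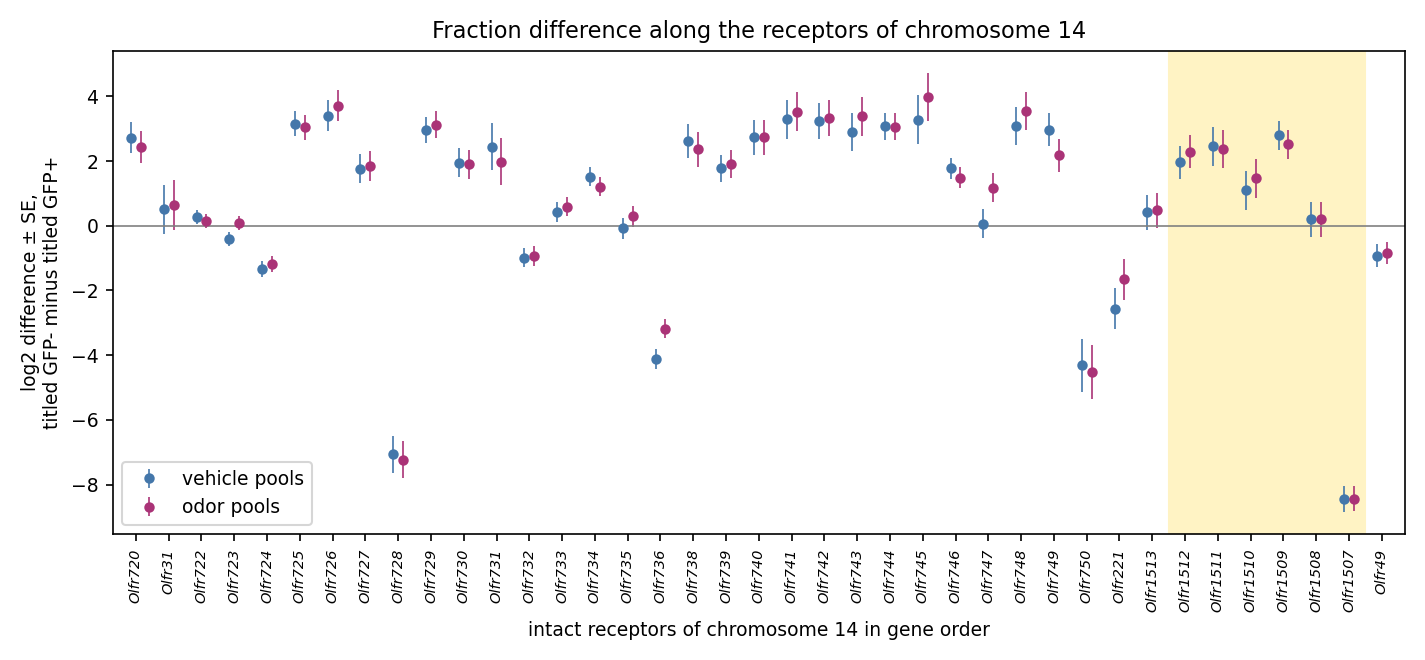
Log2 fraction difference ± SE (y axis, titled GFP- minus titled GFP+) of the 6 cluster receptors and the 33 other intact receptors of chromosome 14 in gene order (x axis, not to scale), in vehicle and odor pools, with the cluster shaded. Olfr1507 is drawn at its measured -8.45 and -8.43, which rest on background readings in titled GFP- cells, and its neighbours in the shaded band lie between 0.20 and 2.80.

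Receptors elsewhere with the most similar pattern were sought among 1074 receptors, by the root mean square difference over 16 arrays after each feature was centred on its own mean. For Olfr1507 they were Olfr99 on chromosome 17 (0.70 log2 units), Olfr794 on chromosome 10 (0.73) and Olfr1384 on chromosome 11 (0.86). Their own vehicle fraction differences were -8.01, -7.43 and -7.48 as measured, near that of Olfr1507 because they were chosen for likeness to it. Each was above both background levels on only 8 of 16 arrays, so these sizes give no exact fold either. Closest to Olfr1508 were Olfr1261, Olfr1415 and Olfr331 (0.56, 0.58 and 0.62), and to Olfr1509 Olfr1443, Olfr1195 and Olfr527 (0.40, 0.43 and 0.43). Olfr1510 had Olfr967, Olfr617 and Olfr691 (0.36, 0.37 and 0.38), and Olfr1511 had Olfr648, Olfr478 and Olfr432 (0.38, 0.40 and 0.43). None of these 15 receptors lies on chromosome 14, which holds only 33 of the 1074 receptors searched. The search set no minimum signal for them, and Olfr331 was above the GC-graded background on 0 of 16 arrays, Olfr967 on 6 and Olfr478 on 7. For Olfr1508, which hardly differed between groups, likeness therefore includes a flat reading at background. Olfr1512, above the strict background on fewer than 4 arrays, was not searched. Between the cluster's own receptors the same measure was 4.39 to 5.60 for Olfr1507 against the others, 1.33 for Olfr1508 against Olfr1509, and 0.61 to 0.68 within the MOR223 trio.

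Once the group means were removed, Olfr1508 varied with Olfr1509, and the MOR223 receptors varied with each other. Over the 16 arrays, which share pools, the deviations of Olfr1510 correlated with those of Olfr1511 at a Pearson r of 0.91 (Spearman rho 0.94) and with those of Olfr1512 at 0.82 (0.71). Olfr1508 and Olfr1509 had an r of 0.77 (rho 0.80). Between the families Olfr1508 and Olfr1510 had -0.48 (rho -0.24), and Olfr1507 had 0.18 to 0.61 with the other 5. These values are descriptions without a test. The deviations of Olfr1510 and Olfr1511 went with the replicate number across both treatments and both fractions, and this was not particular to the MOR223 family. Olfr1510 lay above its group mean by 0.84 to 1.13 on all 4 arrays of number 4 and by 0.32 to 0.60 on those of number 2, and below it on all 4 arrays of number 1, between -1.68 and -0.37. Olfr1511 showed the same sides, from 0.89 to 1.03 on number 4 and from -1.80 to -0.70 on number 1. Olfr1507, of the MOR244 family, also lay below its group mean on all 4 arrays of number 1 (-1.02 to -0.31). It lay above that mean on all 4 arrays of number 4 (0.17 to 0.71). Olfr1512 was below its mean on all 4 arrays of number 1 and above it on 3 of 4 of number 4. The receptor median of the array moved with them, since number 4 had the highest median in each group (8.92 to 9.47) and number 1 the lowest in 3 of 4 groups (7.94, 8.59 and 8.69). Its part in the deviations was not tested. Olfr1508 and Olfr1509 were instead highest on vehicle replicate 3 titled GFP-, at 1.94 and 1.47 above their group means.

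**Figure D4:**
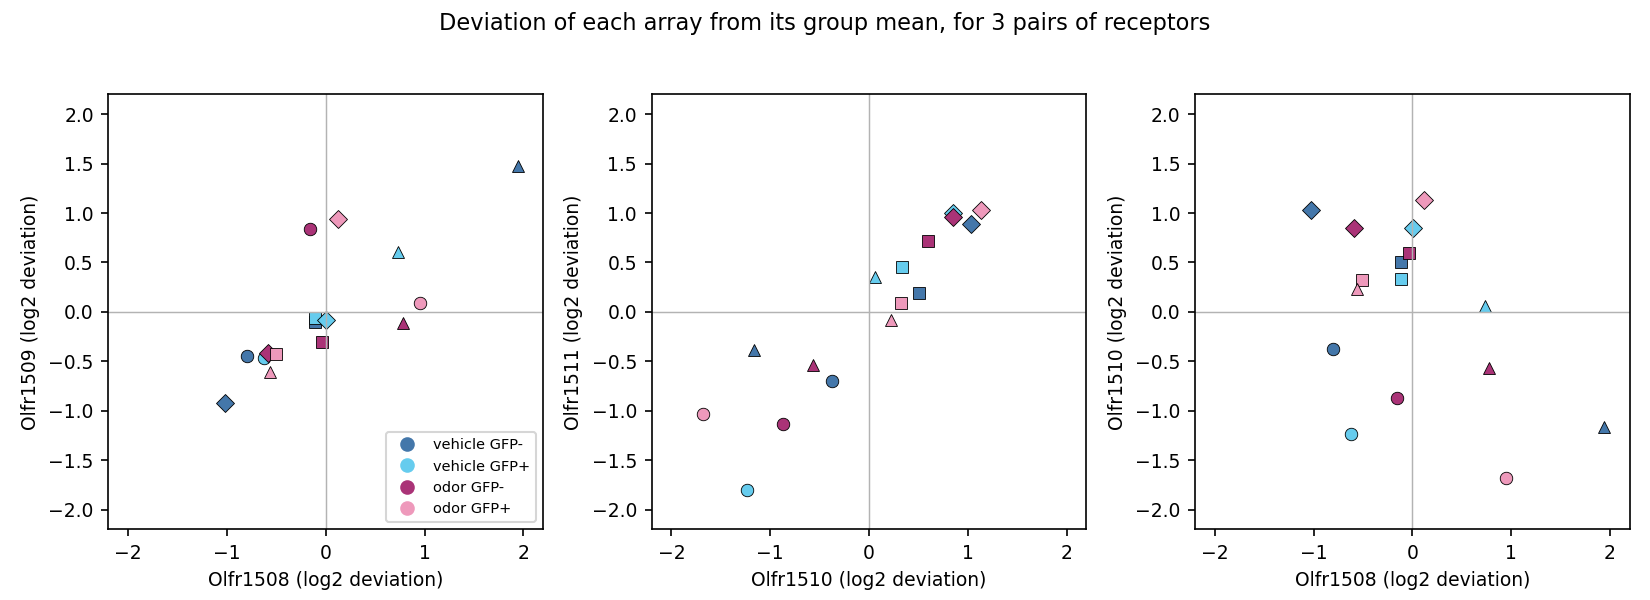
Log2 deviation of each of the 16 arrays from its group mean for Olfr1508 and Olfr1509 (left), Olfr1510 and Olfr1511 (middle) and Olfr1508 and Olfr1510 (right); colours mark groups and symbols replicates 1 to 4 as circle, square, triangle and diamond. The middle panel runs along the diagonal (r of 0.91), with the diamonds of number 4 at the upper right and the circles of number 1 at the lower left.

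Exposure to the aldehyde mixture left all 6 receptors without a called difference. In the titled GFP- fraction odor minus vehicle ranged from -0.47 (Olfr1509) to -0.057 (Olfr1507), and in the titled GFP+ fraction from -0.47 (Olfr1512) to -0.075 (Olfr1507). The differences were below 0 for 6 of 6 receptors in each fraction, as they were for 61.7% of the 1080 receptors in titled GFP- and 76.7% in titled GFP+ cells, with group ranges that overlapped for all 6, where 2.97% of features in titled GFP- and 5.27% in titled GFP+ cells had groups that did not. The signs of single receptors turned under other scalings or without 1 pool. By limma 0 of the 6 passed, 0 had an unadjusted p under 0.05, and 0.00% of all 19572 features passed. At an unadjusted p under 0.05 stood 805 features (4.11%) in the titled GFP- and 2016 (10.3%) in the titled GFP+ fraction. The 95% intervals of the 6 receptors lay within -1.68 to 1.19 and -1.76 to 0.93 log2 units. Each interval is centred on its own estimate, and for each receptor a change inside its own interval cannot be told from none. For Olfr1507, whose titled GFP- level is only background, the titled GFP+ difference was -0.075 ± 0.40 (SE, limma adjusted p = 0.972), with an interval of -0.92 to 0.77. The odor effect on the fraction difference ran from -0.28 (Olfr1509) to 0.37 (Olfr1510), with 0 receptors and 0.00% of features passing in limma, and 739 features (3.78%) at an unadjusted p under 0.05.

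Genes of receptor choice and receptor trafficking were measured beside the cluster, and Lhx2, Ldb1, Ebf1 and Rtp2 are named among them after their values were seen. Of 20 listed, 0 were higher and 2 lower in titled GFP- cells with vehicle, and 2 higher and 3 lower with odor, with medians of 0.04 and -0.03 against 0.13 and 0.14 over all features. Lhx2, a homeodomain factor of receptor enhancers, differed by -0.059 ± 0.12 with vehicle, and its partner Ldb1 by -0.044 ± 0.13 (SE, limma adjusted p = 0.773 and 0.846). Ebf1, the other factor of these enhancers, differed by 0.10 ± 0.11 (adjusted p = 0.540). Lower in both treatments were Lbr, the lamin B receptor of the nuclear envelope, at -1.67 ± 0.32 with vehicle and -1.77 ± 0.32 with odor (adjusted p = 0.0015 and 8.77e-04), and Smchd1, a chromatin repressor, at -0.95 ± 0.18 and -1.29 ± 0.18 (adjusted p = 0.0013 and 7.29e-05). With odor Nfia, a nuclear factor I family member, was lower, and Adcy3, the odorant-response adenylyl cyclase, and Rtp2, a receptor transporter, were higher (-0.56, 0.30 and 0.37; adjusted p = 0.0358, 0.0399 and 0.0449). None of 4 zone markers passed in either treatment; these are Nqo1 and Acsm4 of dorsal and Ncam2 and Nrp2 of ventral epithelium, the part where Olfr1507 is expressed.

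The fractions also differed in activity-dependent genes and in markers of other cells. Of 7 activity-dependent neuron genes 6 were higher in titled GFP- cells in each treatment, among them S100a5 at 1.00 ± 0.20 and 1.31 ± 0.20 (SE, limma adjusted p = 0.0019 and 1.55e-04). Of 11 neutrophil markers 11 were lower there in each treatment, and their summed level was 8.82 to 9.89 log2 units in titled GFP- against 18.4 to 19.8 in titled GFP+ arrays. With vehicle all 11 were below the GC-graded background on every titled GFP- array. Of 13 measured other leukocyte markers 13 were lower (9.18 to 10.4 against 14.9 to 17.2), as were 7 of 7 microvillar cell markers (7.90 to 8.50 against 11.3 to 12.1). Of these, 11 and 5 were above the GC-graded background on at least 4 arrays, and Cx3cr1 and Chat on 0 arrays. Of 12 progenitor and cycling cell markers 9 were lower in each treatment, 6 of them above that background on at least 4 arrays. The basal cell genes Krt5, Krt14 and Trp63 did not pass and were above it on 0 arrays. Of 9 sustentacular cell markers 4 were lower with vehicle and 5 with odor. Of 11 immature neuron markers 6 were lower in each treatment, with summed levels of 17.7 to 18.0 against 17.9 to 18.2. Of 16 mature neuron markers 5 were higher and 1 lower in each treatment, with summed levels of 21.2 to 21.4 against 21.1 to 21.2. The lower one was Calb2, at -4.14 ± 0.17 with vehicle and -3.82 ± 0.17 with odor (SE, limma adjusted p = 9.55e-11 and 2.31e-10). The 5 higher ones differed by 0.34 to 0.57 with vehicle and by 0.30 to 0.71 with odor. The markers that passed in the leukocyte, microvillar, progenitor, sustentacular and immature neuron lists were thus higher on the side of Olfr1507, and the activity-dependent genes on the side of Olfr1509, Olfr1511 and Olfr1512. Their part in the receptor differences was not tested.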

How the data were processed

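The authors deposited 1 log2 signal per feature and array, made with Affymetrix Expression Console per the submitters' processing notes. Its version, background correction and normalization are not given in the sources used here, and log2 was read from the deposited range of 1.77 to 19.3. Features with 1 symbol in GEO's platform annotation were tested (19572, of which 19572 matched RefSeq by Entrez identifier). limma 3.58.1 (R 4.3.3) fitted a cell-means model of 4 groups to all 16 arrays, and its moderated tests (two-sided) were adjusted by Benjamini-Hochberg over all features, with a threshold of 0.05. SE and intervals come from that fit. The members, gene lists and tests were chosen with earlier results of these data known. By rule, named genes were the 6 members, the 3 most alike receptors of each member above background on at least 4 arrays, the extremes of chromosome 14, S100a5 and up to 4 genes of the smallest p per list. Lhx2, Ldb1, Ebf1, Rtp2, Olfr1513, the zone markers and the markers named for their background were added after their values were seen.

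Since 24 mice made 8 pools of 3, the paired fractions share their animals. Their deviations from the group means correlated at 0.096 to 0.34, and those of odor and vehicle arrays of 1 number at 0.15 to 0.55. Pool blocks were alternatives. The fit was tested on simulated data with independent arrays, which does not cover arrays that share a pool or a number. Array number limits the precision, and spot-level depth does not apply. Protein sequences and the windows of Olfr1507 and Olfr1512 were not used here.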

Additional observations from a re-analysis of the deposited data

How the results depend on the processing

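Of the member differences, Olfr1507 and Olfr1509 kept their direction and passed in both treatments under every alternative that tested them. The number of members passing was 3 to 5 in each treatment, and 3 to 4 without 1 pool. The replicate block (pool) raised it to 5 in each treatment through Olfr1510 (1.10 and 1.47, adjusted p = 0.0405 and 0.0094) and changed no other member's call, and so did a block of replicate number, chosen after seeing the data (adjusted p = 0.0214 and 0.0031). Counts over all features moved more. With vehicle 3302 passed, against 13985 with each array centred on its overall median (12456 higher, 1529 lower), 2144 with arrays centred on the receptor median (343 higher, 1801 lower), 1261 among the 6767 features above the negative controls, and 2138 (without vehicle replicate 1) to 3867 without 1 pool. With odor 4338 passed, against 11192 (9658 higher, 1534 lower), 2790 (341 higher, 2449 lower), 2197 and 2689 (without odor replicate 1) to 4255. Quantile normalization gave 2643 higher and 1863 lower with vehicle, where 1380 and 1922 stood as deposited. These scalings put the median of all features at 0.54 and -0.14 with vehicle and at 0.44 and -0.33 with odor, from 0.13 and 0.14. With the number as a block 1 feature passed for odor against vehicle in each fraction, where 0 had. Of the 15 pairs of members 10 differed over pools and 0 with the replicate number as the unit, chosen after seeing the data, where p cannot fall under 0.125. Members stood above background on 54 of 96 member and array combinations, on 18 at the 99th percentile of the negative controls, and on 82 at the GC-graded level.

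Values without a call changed sign as follows, and the cause was not tested. With arrays centred on the receptor median Olfr1508 turned to -0.069 with vehicle and -0.27 with odor. The odor effect on the fraction difference of Olfr1507 turned to -0.069 after quantile normalization, -0.085 after centring on the overall median and -0.18 after centring on the receptor median. For odor minus vehicle on the receptor median, Olfr1507 turned to 0.0087 in titled GFP- cells, and in titled GFP+ cells Olfr1507 to 0.19, Olfr1508 to 0.055 and Olfr1509 to 0.075. Olfr1507 stood at 0.030 there on the overall median. Without 1 pool the fraction difference of Olfr1508 ran from -0.20 to 0.54 with vehicle and from -0.25 to 0.56 with odor. The odor effect on it ran from -0.16 to 0.20 (Olfr1507), -0.45 to 0.40 (Olfr1508), -0.56 to 0.18 (Olfr1509), -0.034 to 0.66 (Olfr1510), -0.32 to 0.29 (Olfr1511) and -0.015 to 0.87 (Olfr1512). Odor minus vehicle in titled GFP- cells ran from -0.40 to 0.23 (Olfr1507), -0.56 to 0.43 (Olfr1508), -0.78 to 0.022 (Olfr1509), -0.49 to 0.24 (Olfr1510) and -0.41 to 0.18 (Olfr1512). In titled GFP+ cells it ran from -0.25 to 0.15 (Olfr1507), -0.53 to 0.034 (Olfr1508), -0.50 to 0.013 (Olfr1509), -0.88 to 0.088 (Olfr1510), -0.94 to 0.0078 (Olfr1511) and -0.88 to 0.0084 (Olfr1512). Signal over background limits Olfr1507 in titled GFP- cells and Olfr1512 in all groups. At the negative-control level it also limits Olfr1509 and Olfr1511 in titled GFP+ cells, and Olfr1511 in titled GFP- cells with odor.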
